A study of Arabidopsis thaliana with 12 samples.

Results

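The 10 genes described here are the plastid-encoded subunits of the chloroplast NDH complex for which the Affymetrix ATH1 array has a probe set of its own: ndhA, ndhC, ndhD, ndhE, ndhF, ndhG, ndhH, ndhI, ndhJ and ndhK. The rule that picks them uses gene name and genome and no measured value, and they are 10 of 13356 genes that could be named on the array. Another 59 plastid genes also had a probe set of their own. The plastid genome of Arabidopsis thaliana holds 11 different ndh genes; the remaining one, ndhB, lies there in 2 copies and was not analysed here.

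The NDH complex, NADH dehydrogenase-like, sits in the thylakoid membrane of the chloroplast and is related to complex I of mitochondria and bacteria. It passes electrons that ferredoxin has received from photosystem I back to plastoquinone, which pumps protons and so serves cyclic electron flow around photosystem I and chlororespiration. Its core is made partly from plastid genes and partly from nuclear genes, and the plastid genes are transcribed in long RNAs that carry several genes each and are then cut, spliced and edited.

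RNA came from green tissue of soil-grown Col-0 seedlings that were 3 weeks old, kept in 10 h of light and 14 h of dark at 23 °C, with 3 arrays in each of 4 groups that the labels call biological replicates. The first line carried an RNA interference construct against CHLD, a subunit of the magnesium chelatase that opens the chlorophyll branch of tetrapyrrole synthesis, and was sprayed with 20 µg/ml dexamethasone. Its control was Col-0 that received the same dexamethasone. The second line carried an inducible construct that raises CHLM, the methyltransferase for the next step after magnesium chelatase, and was sprayed with 20 µM β-estradiol. Its control was Col-0 that received the same β-estradiol. The labels give neither the promoters nor the number of independent lines, nor the time between spraying and harvest.

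The deposited values were taken as log2 signals, a base assumed from their range, and a difference of 1 between groups is then a doubling. The 22746 probe sets other than controls were tested, and array medians lay between 6.26 and 6.31. CHLM stood at 14.2 ± 0.26 in the CHLM overexpression line and at 11.7 ± 0.0208 in Col-0 under estradiol (SD, n = 3 each); CHLD had no named probe set, so its knockdown is not analysed here. Defining genes of green tissue were bright: averaged over all arrays, PSBW and PSAN, nuclear genes of the photosystems, lay at percentiles 99.6 and 99.9 of all tested probe sets, and the guard cell gene FMA at percentile 48.6. The plastid genes rbcL and psbA lay at percentiles 90.8 and 93.9. They were not level: rbcL was higher by 0.51 in the CHLD RNAi line and by 0.50 in the CHLM overexpression line (limma adjusted p = 0.00736 and 0.0123), and psbA was lower in both. Means of FMA were 5.94 and 6.10 in these lines, against 6.32 and 6.33 in their Col-0 groups. Arrays were correlated at 0.983 to 0.997 with each other. The array of Col-0 under estradiol, replicate 1, was least like its group, with a mean correlation of 0.990 with its own group, while 0.994 was the lowest value within a group once it was left out. The labels' 3′ IVT kit copies RNA from its poly(A) tail, and plastid RNA carries such tails mainly on its way to decay; how this bears on the signals of the ndh probe sets was not tested.

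Each gene had 1 probe set, and the signals spread over nearly the whole range of the array. Averaged over the 12 arrays, ndhI lay at percentile 99.8 of tested probe sets, ndhC at 98.9 and ndhA at 97.9. The signals of ndhJ, ndhD and ndhK were intermediate, at percentiles 87, 76.9 and 71.2. The probe sets of ndhG, ndhE, ndhH and ndhF were dim, at percentiles 37.7, 29.5, 19.2 and 2.83. Probe sets bind with different strength, so these positions do not order the amounts of RNA. For ndhF, with a mean of 2.97, and ndhH, with a mean of 3.68, a change in RNA could have gone unseen at the dim end of the scale.

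**Figure D1:**
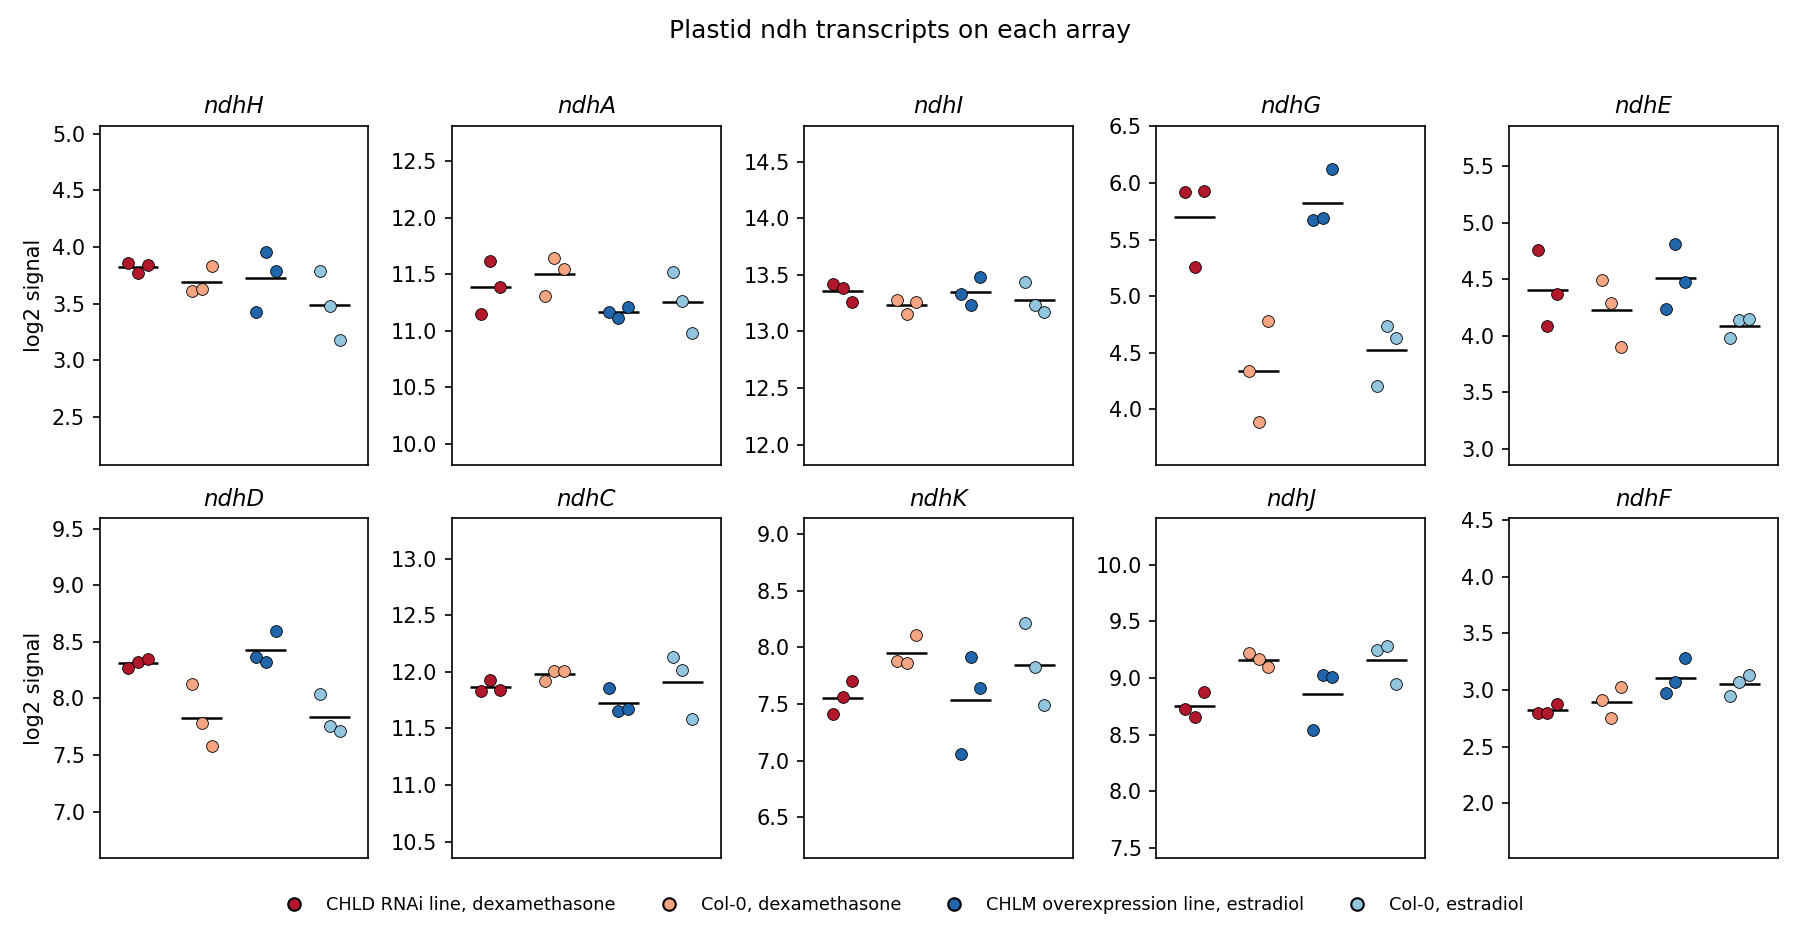
Log2 signal of the 10 plastid ndh genes on each of the 12 arrays, 1 panel per gene with its own vertical range of equal length; points are arrays and bars are the means of 3 arrays. In the ndhG and ndhD panels all 6 arrays of the lines lie above all 6 Col-0 arrays, while in the other panels groups next to each other in the order of their means overlap.

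The largest response was that of ndhG, a membrane-arm subunit that in bacterial complex I corresponds to a proton-channel subunit. It rose in both lines. In the CHLD RNAi line ndhG measured 5.92, 5.26 and 5.93, against 4.34, 3.89 and 4.78 in Col-0 under dexamethasone. In the CHLM overexpression line it measured 5.67, 5.69 and 6.12, against 4.21, 4.74 and 4.63 in Col-0 under estradiol. The lowest array of either line lay above the highest array of either Col-0 group. The difference was 1.37 on the log2 scale in the CHLD RNAi line (SE 0.227, 95% interval 0.88 to 1.85, limma adjusted p = 0.00153), a 2.58-fold rise, and 1.30 in the CHLM overexpression line (SE 0.227, interval 0.81 to 1.79, adjusted p = 0.00461), a 2.46-fold rise. Both calls remained when any 1 of the 12 arrays was left out, with differences of 1.14 to 1.59 in the CHLD RNAi line and 1.14 to 1.41 in the CHLM overexpression line. The Col-0 signals of ndhG were dim, with means of 4.34 ± 0.445 under dexamethasone and 4.53 ± 0.28 under estradiol (SD, n = 3 each), near the level of 4.35 that the filter on dim probe sets used, so the folds may be compressed. In whole green tissue, more cells of a type and more RNA per cell cannot be told apart.

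The other gene to rise in both lines was ndhD, which encodes one of the antiporter-like, proton-pumping subunits of the membrane arm and whose start codon is made by RNA editing. Its signals were 8.27, 8.32 and 8.35 in the CHLD RNAi line, against 8.13, 7.78 and 7.58 in Col-0 under dexamethasone. They were 8.37, 8.32 and 8.60 in the CHLM overexpression line, against 8.04, 7.76 and 7.71 in Col-0 under estradiol. Again no array of a line overlapped any Col-0 array, and the spread was narrowest among the CHLD RNAi arrays. The log2 difference was 0.48 in the CHLD RNAi line (SE 0.133, interval 0.20 to 0.77, limma adjusted p = 0.0289), a 1.40-fold rise, and 0.59 in the CHLM overexpression line (SE 0.133, interval 0.31 to 0.88, adjusted p = 0.0145), a 1.51-fold rise. The first call was lost when replicate 2 or 3 of Col-0 under dexamethasone was left out (adjusted p = 0.0981 and 0.124), and when replicate 1, 2 or 3 of the CHLD RNAi line was left out (adjusted p = 0.0637, 0.0770 and 0.0773). The second call was lost without replicate 3 of the CHLM overexpression line (adjusted p = 0.0509).

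These were the only ndh genes called in either line. In the CHLD RNAi line 2 of the 10 were higher and 0 lower, where 12.4% of all probe sets were called in either direction, 6.07% higher and 6.34% lower. In the CHLM overexpression line the counts were again 2 higher and 0 lower, against 9.75% of all probe sets called in either direction, 5.44% higher and 4.3% lower. The median difference over the 10 genes was 0.03 in the CHLD RNAi line and 0.06 in the CHLM overexpression line, and over all tested probe sets it was -0.01 and 0.02. A median near 0 here joins genes whose differences ran both ways.

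The operon that holds ndhG and ndhD begins with ndhH and runs through ndhA, ndhI, ndhG, ndhE and the photosystem I gene psaC to ndhD. In the order of the TAIR10.1 annotation ndhG lies between ndhI and ndhE. The genes on either side of it did not pass the test. The peripheral-arm subunit ndhI, which carries iron-sulfur clusters, measured 13.42, 13.38 and 13.26 in the CHLD RNAi line, against 13.28, 13.15 and 13.26 in Col-0 under dexamethasone, a difference of 0.12 (interval -0.09 to 0.33, limma adjusted p = 0.485). It measured 13.33, 13.23 and 13.48 in the CHLM overexpression line, against 13.44, 13.23 and 13.17 in Col-0 under estradiol, a difference of 0.07 (interval -0.14 to 0.28, adjusted p = 0.739). Groups overlapped in both comparisons, and both intervals end far below the change of ndhG. The signal of ndhI was close to the top of the scale, where brightness can level off.

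On its other side, ndhE, a small membrane-arm subunit, measured 4.76, 4.09 and 4.37 in the CHLD RNAi line, against 4.49, 4.29 and 3.90 in Col-0 under dexamethasone, and the difference was 0.18 (interval -0.21 to 0.57, limma adjusted p = 0.606). In the CHLM overexpression line it measured 4.24, 4.81 and 4.48, against 3.98, 4.14 and 4.15 in Col-0 under estradiol. There the arrays of the groups did not overlap, but the difference of 0.42 (interval 0.03 to 0.81) had an adjusted p of 0.165. With ndhE, 3 of the 10 genes had no overlap in that comparison, all of them higher, where 26.3% of all probe sets had none, 15.1% higher and 11.3% lower.

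Differences between ndhG and its neighbours were also taken within each array, as a description. Since ndhG was taken up for its rise and its neighbours were not called, they largely restate that rise. The signal of ndhG minus that of ndhI lay between -8.12 and -7.33 in the CHLD RNAi line, against -9.26 to -8.48 in Col-0 under dexamethasone. It lay between -7.66 and -7.36 in the CHLM overexpression line, against -9.23 to -8.49 in Col-0 under estradiol. The signal of ndhG minus that of ndhE lay between 1.16 and 1.56 in the CHLD RNAi line, against -0.40 to 0.88 in Col-0 under dexamethasone, and between 0.88 and 1.64 in the CHLM overexpression line, against 0.23 to 0.60 in Col-0 under estradiol. Neither of these differences overlapped between a line and its Col-0 group. The probe set of ndhI is near the top of the scale and that of ndhE is dim, and either may show less of a change than took place. For ndhG minus ndhD the CHLD RNAi arrays, at -3.06 to -2.35, overlapped the Col-0 dexamethasone arrays, at -3.89 to -2.80, and the CHLM overexpression arrays, at -2.70 to -2.48, lay above the Col-0 estradiol arrays, at -3.83 to -3.02.

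The first 2 genes of the operon did not pass the test either. The probe set of ndhH, a peripheral-arm subunit, gave 3.86, 3.77 and 3.84 in the CHLD RNAi line, against 3.61, 3.63 and 3.83 in Col-0 under dexamethasone, and 3.43, 3.96 and 3.79 in the CHLM overexpression line, against 3.79, 3.48 and 3.18 in Col-0 under estradiol. Its differences were 0.13 (interval -0.19 to 0.45) and 0.24 (interval -0.08 to 0.56). The membrane subunit ndhA, at the joint with the peripheral arm, gave 11.15, 11.62 and 11.39 in the CHLD RNAi line, against 11.31, 11.64 and 11.55 in Col-0 under dexamethasone. In the CHLM overexpression line it gave 11.17, 11.11 and 11.21, against 11.52, 11.26 and 10.98 in Col-0 under estradiol. Its differences were -0.11 (interval -0.42 to 0.19) and -0.09 (interval -0.40 to 0.22), the only negative ones in this operon. The limma adjusted p of both genes was 0.345 or more in both lines. Over the 6 ndh genes of the operon the median difference was 0.16 in the CHLD RNAi line and 0.33 in the CHLM overexpression line, with 2 called higher and 0 lower in each. The 2 called were ndhG and ndhD in both lines. Of all probe sets, 6.07% were called higher in the CHLD comparison and 5.44% in the CHLM comparison.

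**Figure D2:**
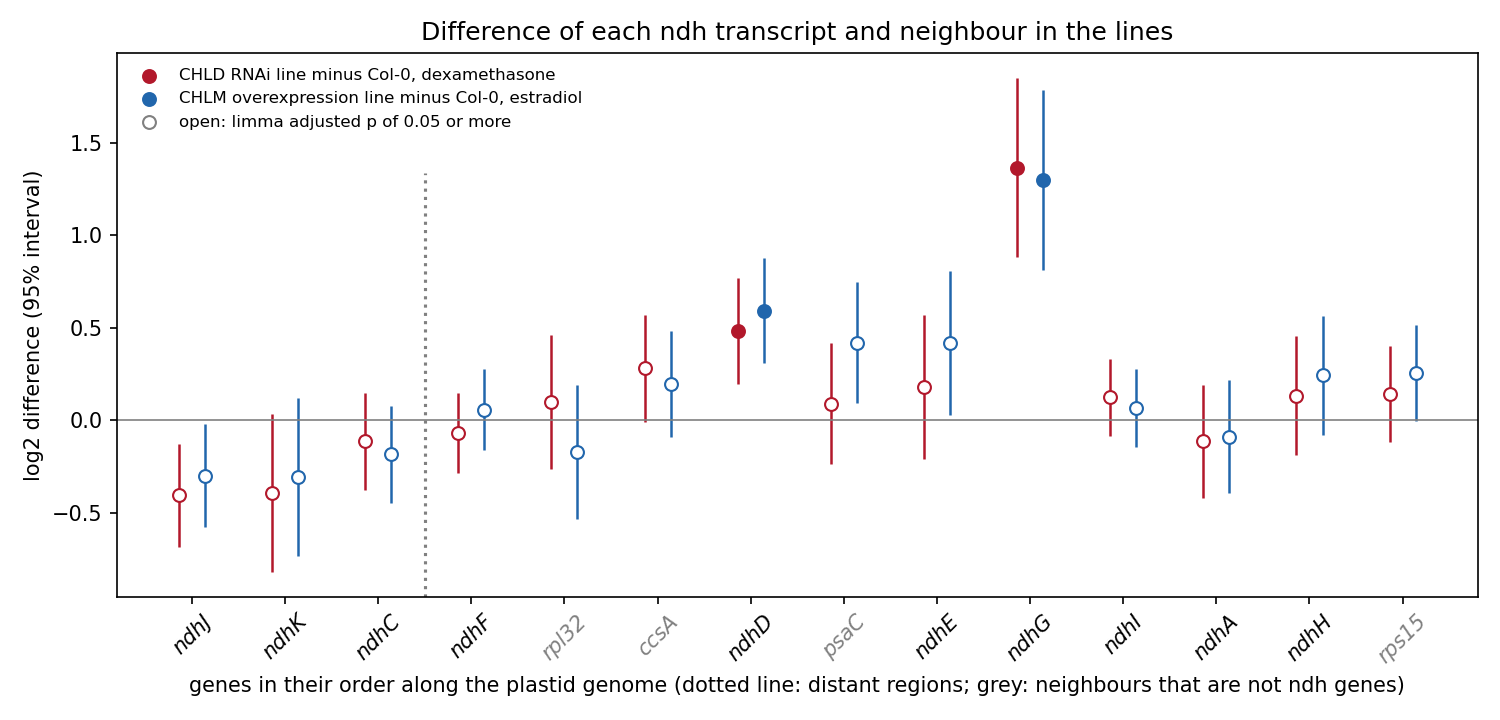
Log2 difference of each line from Col-0 with the same inducer, with 95% intervals from limma, for the 10 ndh genes and 4 measured neighbours in their order along the plastid genome; filled points have an adjusted p under 0.05. Filled points belong to ndhG and ndhD only, and all points of ndhJ, ndhK and ndhC lie below 0.

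Elsewhere in the plastid genome, ndhC, ndhK and ndhJ form an operon of their own, and all 3 had negative differences in both lines, none past the test. The clearest was ndhJ, a peripheral-arm subunit. It measured 8.73, 8.66 and 8.88 in the CHLD RNAi line, against 9.22, 9.17 and 9.10 in Col-0 under dexamethasone. In the CHLM overexpression line it measured 8.54, 9.03 and 9.01, against 9.25, 9.28 and 8.95 in Col-0 under estradiol. The groups of the first comparison did not overlap and those of the second did. The log2 difference was -0.41 in the CHLD RNAi line (SE 0.131, interval -0.69 to -0.13, limma adjusted p = 0.0567), and -0.30 in the CHLM overexpression line (interval -0.58 to -0.02, adjusted p = 0.168). The first of these values lay just outside the threshold and passed it in some other fits: adjusted p was 0.0136 when only the compared groups entered, 0.0366 with a variance trend and robust fitting, and 0.0478 when dim probe sets were left out. It also passed without replicate 1 or replicate 3 of Col-0 under estradiol (0.0448 and 0.0483) and without replicate 1 of the CHLM overexpression line (0.0200), arrays that are not part of that comparison and enter through the shared estimate of spread. Other runs moved ndhJ further from the threshold. Its limma adjusted p was 0.0751 with a replicate block and 0.155 without replicate 1 of Col-0 under dexamethasone. The highest value without a single array was 0.167.

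The peripheral-arm subunit ndhK, which holds an iron-sulfur cluster next to the quinone site, measured 7.41, 7.56 and 7.70 in the CHLD RNAi line, against 7.88, 7.86 and 8.11 in Col-0 under dexamethasone. Its values were 7.06, 7.92 and 7.64 in the CHLM overexpression line, against 8.22, 7.83 and 7.49 in Col-0 under estradiol. The first pair of groups did not overlap, with a difference of -0.39 (interval -0.82 to 0.03, limma adjusted p = 0.233, or 0.0305 when only the compared groups entered the fit). In the second pair the groups overlapped widely, with a difference of -0.31 (interval -0.73 to 0.12, adjusted p = 0.375). Together, ndhG, ndhD, ndhJ and ndhK made 4 of 10 genes with no overlap between the CHLD RNAi line and Col-0, 2 in each direction, where 31.7% of all probe sets had none, 15.9% higher and 15.8% lower.

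The remaining gene of that operon, ndhC, is a small membrane-arm subunit. It measured 11.83, 11.93 and 11.84 in the CHLD RNAi line, against 11.92, 12.01 and 12.01 in Col-0 under dexamethasone, and 11.86, 11.65 and 11.67 in the CHLM overexpression line, against 12.13, 12.02 and 11.58 in Col-0 under estradiol. The differences were small, at -0.11 (interval -0.38 to 0.15) and -0.18 (interval -0.45 to 0.08). Over the 3 genes the median difference was -0.39 in the CHLD RNAi line and -0.30 in the CHLM overexpression line. Replicate 1 of the CHLM overexpression line had the lowest of all 12 signals for ndhJ and ndhK. The array that stood apart, replicate 1 of Col-0 under estradiol, had the highest of the 12 for ndhK and ndhC and the second highest for ndhJ.

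The last gene, ndhF, encodes the antiporter-like subunit at the far end of the membrane arm and is transcribed apart from the other ndh genes. It measured 2.80, 2.80 and 2.88 in the CHLD RNAi line, against 2.91, 2.75 and 3.03 in Col-0 under dexamethasone, and 2.97, 3.07 and 3.28 in the CHLM overexpression line, against 2.95, 3.07 and 3.13 in Col-0 under estradiol. All its signals lay near the floor of the array. The differences were -0.07 (interval -0.29 to 0.15) and 0.06 (interval -0.16 to 0.27), and it was the only one of the 10 genes whose differences had opposite signs in the lines.

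Grouped by place in the complex, the membrane arm (ndhA, ndhC, ndhD, ndhE, ndhF and ndhG) had 2 genes higher, 0 lower and 4 not called in each line, where 12.4% of all probe sets were called in the CHLD comparison and 9.75% in the CHLM comparison. Its median difference was 0.06 in the CHLD RNAi line and 0.24 in the CHLM overexpression line. The peripheral arm (ndhH, ndhI, ndhJ and ndhK) had 0 of 4 called in either line by limma, with medians of -0.14 and -0.12; 1 of the 4, ndhJ, had an unadjusted p under 0.05 in each line and was called in the CHLD RNAi line by the fit with trend and robust variances. In both arms the genes differed among themselves by more than the arms differed from each other.

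The Col-0 groups, which differ in the inducer, were set against each other to see whether the ndh genes differed between the inducers. No Col-0 group went without an inducer, so an effect common to both inducers cannot be seen. None of the 10 genes was called by limma, none had an unadjusted p under 0.05, and none had groups without overlap; 0.0484% of all probe sets were called in that comparison, and 14.9% had no overlap. A fit with a variance trend and robust variances also called 0. The log2 differences of Col-0 under dexamethasone from Col-0 under estradiol ran from -0.19 for ndhG (interval -0.68 to 0.30) to 0.25 for ndhA (interval -0.06 to 0.55). The interval for ndhG does not reach the size of its difference in either line.

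The responses of the lines were then compared with each other, as the CHLM effect minus the CHLD effect, each against Col-0 with its own inducer. None of the 10 genes passed limma's test, none had an unadjusted p under 0.05, and the fit with trend and robust variances also called 0; 1.13% of all probe sets were called. For ndhG the difference between the effects was -0.07 (SE 0.321, interval -0.75 to 0.62), and for ndhD it was 0.11 (interval -0.29 to 0.51). The largest value was that of ndhE, 0.24 (interval -0.31 to 0.79). These intervals still allow differences of about the size of the ndhD response, and in simulated data the test found 1% of probe sets whose effects differed by 0.5 on the log2 scale and 94% of those that differed by 1.

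Side by side, 9 of the 10 genes had the same sign in both lines, where 67.5% of all probe sets and 46 of the 59 other plastid transcripts did; the lines share no arrays. Called in the same direction in both were 2 of the 10 genes, 11 of the 59 other plastid transcripts and 4.61% of all probe sets. The order of the group means of ndhG and ndhD was the same: CHLM overexpression, CHLD RNAi, Col-0 under estradiol, Col-0 under dexamethasone. Only the middle step, between the lines and Col-0, had no overlap; the lines overlapped each other, and so did the Col-0 groups. For each of the other 8 genes every pair of neighbouring groups in the order overlapped.

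**Figure D3:**
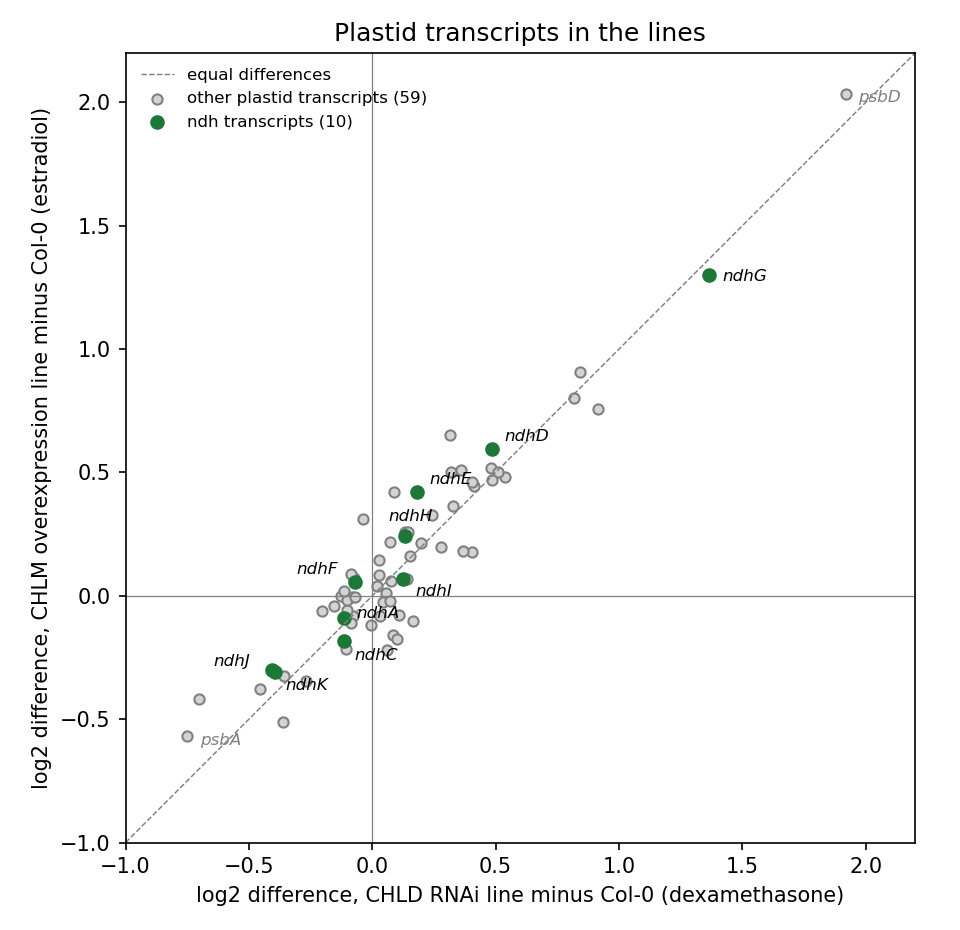
Log2 difference of the CHLM overexpression line from Col-0 under estradiol (vertical) against that of the CHLD RNAi line from Col-0 under dexamethasone (horizontal), for the 10 ndh genes (green) and 59 other plastid transcripts (grey); the dashed line marks equal differences. The point of ndhG lies at 1.37 and 1.30, below psbD alone on both axes, and most ndh genes lie within 0.5 of 0.

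Among the other 59 plastid transcripts, 8 were called higher and 5 lower in the CHLD RNAi line, and 11 higher and 3 lower in the CHLM overexpression line. Of all probe sets, 12.4% and 9.75% were called in these comparisons. Not called were 46 and 45 of the 59, beside 8 of the 10 ndh genes in each line, so the share called among the ndh genes was near that of the other plastid transcripts. The median differences of the 59 were 0.07 in each line, close to those of the ndh genes. The largest rises in the CHLD RNAi line were psbD, for the D2 protein of photosystem II, at 1.92 (limma adjusted p = 3.98e-06), and petA, for cytochrome f, at 0.91 (adjusted p = 0.00189). The largest falls there were psbA, for the D1 protein, at -0.75 (adjusted p = 0.000563), and psbN, at -0.70 (adjusted p = 0.0105). In the CHLM overexpression line psbD rose by 2.03 (adjusted p = 1.37e-05) and psaA, for a core protein of photosystem I, rose by 0.91 (adjusted p = 0.0208). The call of psaA was lost without replicate 2 or 3 of Col-0 under estradiol or replicate 2 of the CHLM overexpression line (adjusted p up to 0.0793). The falls there were psbA at -0.57 (adjusted p = 0.00664) and rps19, for a ribosomal protein, at -0.51 (adjusted p = 0.00957).

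Several calls of ndh genes changed with the level against which plastid transcripts were read. The median signal of the 69 plastid probe sets was 9.46, 9.47 and 9.25 in the CHLD RNAi line, against 9.22, 9.04 and 9.10 in Col-0 under dexamethasone. It was 9.24, 9.31 and 9.38 in the CHLM overexpression line, against 9.25, 9.21 and 8.85 in Col-0 under estradiol. When each array was centred on this median, which lowered every difference by 0.27 in the CHLD RNAi line and by 0.21 in the CHLM overexpression line, ndhG was still higher at 1.09 in both. In that scaling ndhD was not called in either line (0.21, limma adjusted p = 0.302, and 0.39, adjusted p = 0.136). The split of calls became 1 higher and 2 lower in the CHLD RNAi line and 1 higher and 1 lower in the CHLM overexpression line, with ndhJ at -0.68 (adjusted p = 0.00321) among those lower in the CHLD RNAi line. Centring instead on the median deviation of the other 59 transcripts, which lowered differences by 0.08 and 0.06, gave 1 higher and 1 lower in the CHLD RNAi line and 2 higher and 0 lower in the CHLM overexpression line. Such centring shifts every probe set on an array, and the share of all probe sets then called is not given here.

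Of 5 genes that lie next to ndh genes and are not ndh genes, 4 were measured, and limma called 0 of 4 in either line, with or without trend and robust variances; 1 of them, psaC in the CHLM overexpression line, had an unadjusted p under 0.05. The iron-sulfur protein gene psaC, which lies between ndhE and ndhD, differed by 0.09 in the CHLD RNAi line (interval -0.24 to 0.42) and by 0.42 in the CHLM overexpression line (interval 0.09 to 0.75, adjusted p = 0.0999). Within arrays, ndhD minus psaC lay between 3.84 and 4.05 in the CHLD RNAi line, against 3.50 to 3.65 in Col-0 under dexamethasone, and between 3.73 and 4 in the CHLM overexpression line, against 3.62 to 3.72 in Col-0 under estradiol. The groups did not overlap, by a narrow margin in the CHLM overexpression line, but psaC is as dim as ndhE (4.35 in the CHLD RNAi line, against 4.26 in Col-0 under dexamethasone, and 4.60 in the CHLM overexpression line, against 4.18 in Col-0 under estradiol). In the CHLD RNAi line this difference largely restates the rise of ndhD. In the CHLM overexpression line psaC itself differed by 0.42, beside 0.59 for ndhD. The mean of ndhD minus psaC there was 3.83, against 3.66 in Col-0 under estradiol. Of the 4 measured neighbours, 2 (psaC and rps15) had no overlap in that comparison, both higher, where 15.1% of all probe sets were higher without overlap. The cytochrome assembly gene ccsA, on the other side of ndhD, differed by 0.28 in the CHLD RNAi line (interval -0.01 to 0.57) and 0.20 in the CHLM overexpression line. The ribosomal protein genes differed by 0.14 and 0.26 for rps15, and by 0.10 and -0.17 for rpl32.

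Nuclear genes that work with the plastid subunits were covered thinly, since few had a named probe set. Of 20 nuclear-encoded NDH subunits, 4 were measured, and 1 was called higher and 0 lower in each line. Of all probe sets, 6.07% were called higher in the CHLD RNAi line and 5.44% in the CHLM overexpression line, and with so few genes measured the counts of this list and of those that follow are not set apart from these shares. The gene called was AT2G04039, listed as a subunit but without a symbol in the annotation used here. It measured 10.02, 9.88 and 9.80 in the CHLD RNAi line, against 9.42, 9.32 and 9.43 in Col-0 under dexamethasone, and 9.74, 10.11 and 9.80 in the CHLM overexpression line, against 9.51, 9.41 and 9.38 in Col-0 under estradiol. Neither pair of groups overlapped. Its differences were 0.51 (SE 0.104, limma adjusted p = 0.00582) and 0.45 (SE 0.104, adjusted p = 0.0165). The second call was lost without replicate 3 of Col-0 under estradiol or replicate 2 of the CHLM overexpression line (adjusted p up to 0.0561). The ferredoxin-binding subunit NdhS differed by -0.18 and -0.32 (adjusted p = 0.353 and 0.0941), NdhL by 0.09 and 0.19, and NdhN by 0.12 in both, none of them past the test.

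Of 10 assembly factors of the NDH complex, 4 were measured. In the CHLD RNAi line 1 was called higher and 0 lower, and in the CHLM overexpression line 2 higher and 0 lower, again beside 6.07% and 5.44% of all probe sets called higher. CRR41 was higher in both, by 0.58 (SE 0.12, limma adjusted p = 0.00649) in the CHLD RNAi line and by 0.52 (SE 0.12, adjusted p = 0.0169) in the CHLM overexpression line. It measured 7.97, 7.70 and 7.69 in the CHLD RNAi line, against 7.22, 7.25 and 7.16 in Col-0 under dexamethasone, and 7.54, 7.99 and 7.80 in the CHLM overexpression line, against 7.17, 7.42 and 7.19 in Col-0 under estradiol. HCF101, an iron-sulfur scaffold protein that also serves photosystem I, was called in the CHLM overexpression line at 0.42 (adjusted p = 0.0257) and not in the CHLD RNAi line at 0.21 (adjusted p = 0.223). The CRR41 call in the CHLM overexpression line was lost without replicate 3 of Col-0 under estradiol or replicate 2 of the CHLM overexpression line (adjusted p up to 0.0629). The HCF101 call was lost without replicate 1 or 2 of Col-0 under estradiol or replicate 2 or 3 of the CHLM overexpression line (adjusted p up to 0.0894).

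Of 13 factors for transcription, processing and editing of ndh RNA, 7 were measured, with 2 higher and 0 lower in each line, beside the same 6.07% and 5.44% of all probe sets called higher. CRR21, a pentatricopeptide repeat protein that edits ndhD RNA, was higher in both lines, by 0.39 (SE 0.113, limma adjusted p = 0.0359) in the CHLD RNAi line and by 0.45 (SE 0.113, adjusted p = 0.0244) in the CHLM overexpression line. CRR28, which edits ndhB and ndhD RNA, was called in the CHLD RNAi line at 0.35 (adjusted p = 0.0131), and differed by 0.08 (adjusted p = 0.605) in the CHLM overexpression line. OTP81, an editing factor for several plastid RNAs, was called in the CHLM overexpression line at 0.72 (adjusted p = 0.0319), and differed by 0.38 (adjusted p = 0.240) in the CHLD RNAi line. Limma called 0 of the 7 for the difference between the effects, where 2, OTP84 and CRR28, had an unadjusted p under 0.05. OTP84 differed by -0.35 in the CHLD RNAi line (limma adjusted p = 0.0534), without overlap, where 15.8% of all probe sets were lower without overlap. In the CHLM overexpression line it differed by 0.20 (adjusted p = 0.292). The means of OTP84 were 5.91 in the CHLD RNAi line and 6.14 in the CHLM overexpression line, against 6.26 and 5.94 in their Col-0 groups. Those Col-0 groups themselves differed by 0.32 (limma adjusted p = 0.319) without overlap, where 14.9% of all probe sets had none. The means of CRR28 were 5.71 in the CHLD RNAi line and 5.65 in the CHLM overexpression line, against 5.36 and 5.57 in their Col-0 groups. All calls in this list were sensitive to single arrays. The CHLD RNAi call of CRR21 was lost without any replicate of Col-0 under dexamethasone or without replicate 1 of the CHLD RNAi line (adjusted p up to 0.146), and its other call without replicate 1 or 2 of Col-0 under estradiol or replicate 1 or 3 of the CHLM overexpression line (up to 0.0925). The call of CRR28 was lost without replicate 2 of Col-0 under dexamethasone or replicate 2 of the CHLD RNAi line (up to 0.0595), and that of OTP81 without replicate 1 or 3 of Col-0 under estradiol or replicate 1 or 2 of the CHLM overexpression line (up to 0.126). When only the compared groups entered the fit, the 5 calls of nuclear genes in the CHLM overexpression line were lost (adjusted p = 0.0522 to 0.0913).

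For the other routes of cyclic electron flow and chlororespiration, 2 of 5 genes were measured and 0 were called by limma in either line, with 0 at an unadjusted p under 0.05 and 0 by the fit with trend and robust variances for the gene named. The plastoglobule NAD(P)H dehydrogenase NDC1 differed by 0.12 in the CHLD RNAi line (interval -0.14 to 0.38, adjusted p = 0.602) and 0.06 in the CHLM overexpression line (interval -0.19 to 0.32, adjusted p = 0.805).

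**Figure D4:**
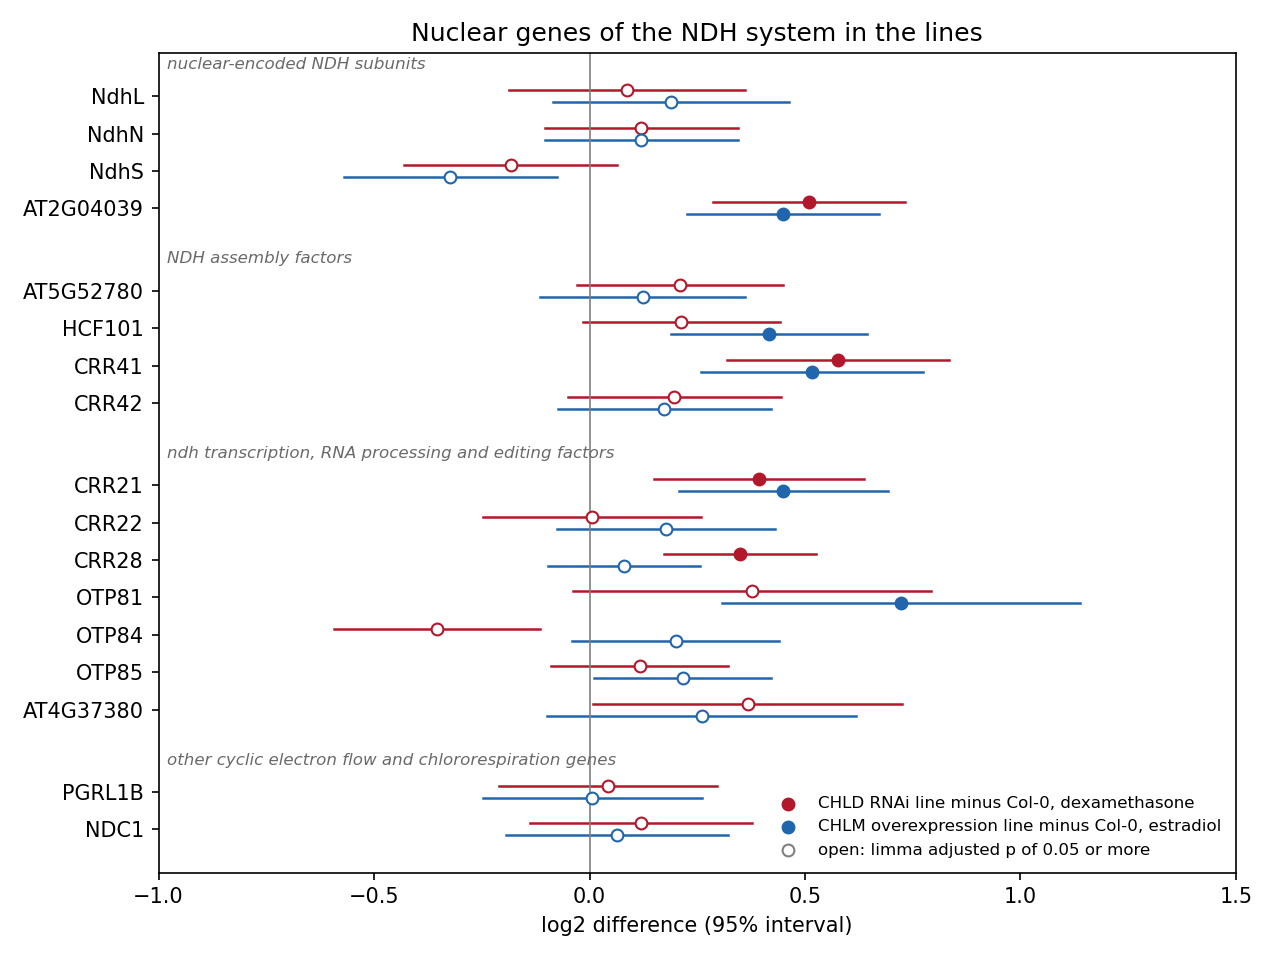
Log2 difference of each line from Col-0 with the same inducer, with 95% intervals from limma, for the 17 measured nuclear genes of the NDH complex, its assembly, its RNA processing and related electron flow; filled points have an adjusted p under 0.05. AT2G04039, CRR41 and CRR21 are filled in both lines, and no gene has a filled point below 0.

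Across the 12 arrays, the nuclear genes whose signal most resembled that of ndhG were AT3G44450 (Pearson r = 0.969), AT1G66090 (0.960), AT1G53120 (0.959), AT3G08980 (0.955) and AT4G13050 (0.952), among 13346 named genes outside the 10. The 12 points share the layout of 4 groups, so any gene that differs between the lines and Col-0 as ndhG does will score high, and no p-value is attached. For the mean of the 10 ndh genes, each centred over the arrays, the closest were FZL, a dynamin-like protein of thylakoids (r = 0.932), AT1G02270 (0.915), the plastid gene cemA (0.898), COAD (0.887) and AT5G40500 (0.884). Leaving out any 1 array took these last values no lower than 0.799. On each array the mean itself was 0.078, 0.002 and 0.107 in the CHLD RNAi line, against -0.028, -0.120 and -0.022 in Col-0 under dexamethasone, and -0.073, 0.142 and 0.191 in the CHLM overexpression line, against 0.016, -0.056 and -0.240 in Col-0 under estradiol. Genes were centred but not scaled for this mean, so ndhG, with differences of 1.37 and 1.30, weighs most in it. The median difference over the 10 genes was 0.03 in the CHLD RNAi line and 0.06 in the CHLM overexpression line.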

How the data were processed

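RNA of 12 seedling samples, in 4 groups of 3, was hybridised to Affymetrix ATH1 arrays of a single colour. Per the submitters' processing notes, the authors used Affymetrix Expression Console; they deposited 1 log2 signal per probe set and array. The software version, the way probes were summarised and the normalization are not given in the sources used here. Base 2 was assumed because signals ran from 2.39 to 14.49. They were used as deposited. After 63 control probe sets were removed, 22746 remained for testing. Of these, 13513 had a single gene in the platform annotation, 503 several and 8730 none; of the first, 13436 matched RefSeq's TAIR10.1 table. A gene with several probe sets is represented by the brightest; each ndh gene had 1.

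Groups were compared in R 4.3.3 with limma 3.58.1: 1 model of 4 groups over all arrays, eBayes without trend or robust fitting (degrees of freedom: 8 residual, 6.05 prior), two-sided, Benjamini-Hochberg adjusted over 22746 probe sets, called at an adjusted p under 0.05. Intervals are 95% and errors of means are SD over 3 arrays. The number of arrays limits the precision. In simulated data with 200 changed probe sets, a log2 difference of 0.5 was found for 53.5% in the CHLD comparison and 52.5% in the CHLM comparison, and one of 1 for 97% and 98.5%. In the real data 2822 and 2217 probe sets were called in these comparisons. The adjustment depends on that number, so the simulated shares may not hold for these data.

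All 10 ndh genes and all measured neighbours are named. From each nuclear list up to 4 called genes (2 rises, 2 falls) are named, or the one with the smallest p; the other NDH subunits and further values were added after the values were seen. Of the other plastid transcripts the 2 largest rises and falls are named, with rbcL and psbA as genes of green tissue. The 5 genes most correlated with ndhG and with the mean are named too. The genes, the lists and the tests were chosen with earlier results of these data known. The lists of neighbours, subunits, assembly factors, processing factors and other electron flow genes rest on textbook knowledge. Alternatives were another fit, filter, normalization or centring, a replicate block, and leaving out each array.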

Additional observations from a re-analysis of the deposited data

How the results depend on the processing

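The calls of ndhG in both lines remained in every alternative run. Of the 10 ndh genes, 2 were called in the CHLD comparison; the count was 4 (2 higher, 2 lower) when only the compared groups entered, and 1 to 3 when single arrays were left out. In the CHLM comparison the count of 2 became 1 to 2 without single arrays. Centring on the median of the other plastid transcripts, an alternative chosen after seeing the data, gave 6 (1 higher, 5 lower) and 5 (1 higher, 4 lower). The share of all probe sets called can change with each of these fits and is not given here, so these counts cannot be set against it. The Col-0 comparison and the difference between the effects stayed at 0 in every alternative run. A fit of only the compared groups does not exist for the difference between the effects, which uses all of them. Another probe set per gene was not run, since each ndh gene had 1. All 5 CHLM calls of nuclear genes, and that of psaA, were lost when only the compared groups entered, at limma adjusted p of 0.0522 to 0.0913. Quantile normalization changed no call of an ndh gene. Replicate numbers are shared across groups, but same-numbered arrays did not deviate together (correlations of 0.06, -0.071 and 0.075 for the CHLD pair of groups and -0.105, 0.069 and -0.023 for the CHLM pair). With the number as a replicate block, the counts were 2, 2, 0 and 0 and no call changed.

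Sign changes were limited to uncalled differences. Centring on the plastid median turned those of ndhE (-0.093), ndhI (-0.15), ndhH (-0.14), psaC (-0.18), rps15 (-0.13) and rpl32 (-0.17) in the CHLD comparison, of ndhF (-0.15), ndhI (-0.14) and ccsA (-0.01) in the CHLM comparison, of ndhJ (-0.013) between the Col-0 groups and of ndhI (0.01) between the effects. Centring on the median of the other plastid transcripts turned ndhE (-0.17), ndhI (-0.23) and ndhH (-0.22) in the CHLD comparison, ndhF (-0.30), ndhI (-0.29) and ndhH (-0.12) in the CHLM comparison, and ndhJ (-0.09) and ndhC (-0.02) between the Col-0 groups. Centring on their median deviation, also chosen after seeing the data, turned ndhF (-0.0078) in the CHLM comparison, and quantile normalization turned ndhJ (-0.0076) between the Col-0 groups. The centrings subtract 1 number per array from every probe set on it, so these shifts follow from their construction.

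Leaving out single arrays also turned uncalled differences. In the CHLD comparison the ranges were -0.23 to 0.005 for ndhA, -0.073 to 0.24 for psaC and -0.015 to 0.25 for rps15. In the CHLM comparison they were -0.23 to 0.043 for ndhA, -0.03 to 0.13 for ndhF, -0.03 to 0.19 for NDC1 and -0.34 to 0.05 for rpl32. Between the Col-0 groups they were -0.10 to 0.18 for ndhC, -0.16 to 0.12 for ndhD, -0.41 to 0.033 for ndhG, -0.11 to 0.03 for ndhI, -0.10 to 0.063 for ndhJ and -0.075 to 0.29 for ndhK. Between the effects they were -0.11 to 0.16 for ndhA, -0.24 to 0.04 for ndhC, -0.04 to 0.24 for ndhD, -0.29 to 0.16 for ndhG, -0.042 to 0.26 for ndhH, -0.12 to 0.023 for ndhI and -0.10 to 0.33 for ndhK. Signal near the floor limits what can be seen for ndhF, ndhH and ndhE, which a filter on dim probe sets removed.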
